A study of Mus musculus with 6 samples.

Results

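Dmbt1, Slpi, Pglyrp1, Ltf, Itln1 and Camp are 6 mouse genes for proteins that are released onto mucosal surfaces, where they bind microbes, kill them, withhold iron from them or restrain the proteases of inflammation. They were picked by name, with their int 3 minus int 2 differences in this dataset already known, and they are 6 of the 35434 genes in the deposited table. Their levels and differences are therefore given as a description, without a test. In the large intestine mean Dmbt1 was 5.04 times and mean Slpi 17.5 times as high in the int 3 libraries as in the int 2 libraries, Pglyrp1 was higher by a smaller factor, and the few fragments of Ltf were more frequent. Itln1 and Camp were lower in int 3, and the 3 int 3 libraries differed far more among themselves than the 3 int 2 libraries for Dmbt1, Slpi, Pglyrp1 and Ltf.

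The study asked how regulatory T cells (Tregs) treated with lenvatinib, an inhibitor of receptor tyrosine kinases, act in mice with inflammatory bowel disease (IBD) after transfer. RNA from the large intestine of 6 samples was sequenced, 3 titled int 3 and 3 titled int 2. The design text names recipients of Lenv-Tregs and of Ctrl-Tregs, but no label says which of them is int 3 and which is int 2, so the groups are called by their titles and no treatment is assigned to either. All 6 samples carry the same tissue label, and the IBD model, strain, age, sex, cell dose, time after transfer and gut segment are not given in the sources used here. The labels do not state whether libraries sharing a title come from different animals, so p-values measure the spread between these libraries, which may be technical.

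Dmbt1 encodes a large secreted glycoprotein built mainly of scavenger receptor cysteine-rich (SRCR) domains, which binds bacteria and is known in human saliva as salivary agglutinin. Slpi (secretory leukocyte peptidase inhibitor) encodes a WAP-domain protein that inhibits neutrophil elastase and cathepsin G. Pglyrp1 encodes a peptidoglycan recognition protein that binds bacterial cell wall and is stored in neutrophil granules, and Ltf encodes lactotransferrin, the iron-binding protein of secretions and neutrophil granules. Itln1 encodes intelectin 1, a lectin of intestinal goblet and Paneth cells that recognises microbial sugars, and Camp encodes the precursor of the mouse cathelicidin peptide. Epithelial cells make several of these proteins after signals from cytokines such as interleukin 22 and interleukin 17. Neutrophils bring the Pglyrp1, Ltf and Camp proteins from the bone marrow as stored protein, which RNA levels do not measure. Whole-tissue RNA can hold transcripts of several cell types. In such bulk RNA, fewer cells of a type and less RNA per cell cannot be told apart.

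The sequences before the transcription starts of 5 of the 6 genes were in the RefSeq promoter table at hand (build GRCm38.p6; the deposited values were made on GRCm39, so the coordinates below belong to another build than the values). The 250 bases up to the start are shown 5′ to 3′ for the 3 matched genes that were higher in int 3 and for Itln1, the best measured gene that was lower. Capitals mark the matches to the letters searched.
Slpi, chr2:164356508-164356757, minus strand: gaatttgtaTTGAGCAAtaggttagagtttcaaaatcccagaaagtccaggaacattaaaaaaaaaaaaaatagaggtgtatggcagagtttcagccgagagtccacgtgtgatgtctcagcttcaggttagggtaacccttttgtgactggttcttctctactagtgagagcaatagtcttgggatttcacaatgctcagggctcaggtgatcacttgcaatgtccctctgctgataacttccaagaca
Pglyrp1, chr7:18884440-18884689, plus strand: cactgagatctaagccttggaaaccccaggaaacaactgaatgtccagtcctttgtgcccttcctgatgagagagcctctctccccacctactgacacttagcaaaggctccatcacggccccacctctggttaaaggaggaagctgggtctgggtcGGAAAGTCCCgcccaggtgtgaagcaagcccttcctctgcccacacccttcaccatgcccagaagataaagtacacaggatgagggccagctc
Ltf, chr9:111019042-111019291, plus strand: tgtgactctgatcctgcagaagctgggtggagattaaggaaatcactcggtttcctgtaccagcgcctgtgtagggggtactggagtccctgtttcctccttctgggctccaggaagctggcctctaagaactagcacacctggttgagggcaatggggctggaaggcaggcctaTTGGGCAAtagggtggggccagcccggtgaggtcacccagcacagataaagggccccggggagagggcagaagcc
Itln1, chr1:171535295-171535544, minus strand: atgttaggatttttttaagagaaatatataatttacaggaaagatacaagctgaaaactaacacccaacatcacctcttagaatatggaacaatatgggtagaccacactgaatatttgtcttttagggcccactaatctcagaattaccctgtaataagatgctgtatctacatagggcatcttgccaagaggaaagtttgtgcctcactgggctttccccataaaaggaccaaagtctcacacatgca
The windows searched ran from 250 bases before to 50 after the start, on both strands, for the STAT palindrome TTCNNNGAA, the NF-kB consensus, the C/EBP letters TTNNGCAA and the TATA box TATAAA, motifs of factors that act downstream of inflammatory cytokines and of the basal start site. Slpi held a C/EBP match, TTGAGCAA, at positions -241 to -234, and Ltf held one, TTGGGCAA, at -75 to -68. Pglyrp1 held an NF-kB match, GGAAAGTCCC as read on the printed strand, at -93 to -84. Camp held an NF-kB match just after its start, at positions 35 to 44, and Itln1 held none of the 4. Matches to different motifs did not overlap. The STAT letters were in none of the 5 windows, nor was the TATA box. Of 32851 mouse windows of the same length, 8.30% held the STAT letters, 8.46% the NF-kB letters, 10.8% the C/EBP letters and 13.6% the TATA box. A match of letters is a description and not a bound site.

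The table gives FPKM, fragments per kilobase of gene scaled to the library total, and its steps gave back the fragments behind each value. The libraries held 34125553, 34021819 and 35060598 fragments in int 3-1, int 3-2 and int 3-3, and 34162483 to 34447585 in the int 2 libraries. Over the tested genes the spread of fragments within a group, as chi-square per degree of freedom, was 86.3 in int 3 and 2.94 in int 2, where 1 is counting noise alone. The int 3 libraries also stood apart from each other in Hoxb13, a homeobox gene expressed towards the anal end of the bowel, at 146, 16.4 and 267 FPKM across int 3-1, int 3-2 and int 3-3, against 285 to 288 FPKM in the int 2 libraries. Epcam of epithelial cells was at 595 to 684 FPKM in int 3 and 681 to 700 FPKM in int 2 (adjusted p = 0.31, limma). No listed marker of stratified squamous epithelium reached 1 FPKM in any library. Of 12 small intestine genes, 5 Paneth cell defensin genes were listed at 0 in all 6 libraries. Fabp6 was at 30.2, 3.40 and 52.2 FPKM across int 3-1, int 3-2 and int 3-3 and 6.37 to 9.67 FPKM in int 2. Fabp2 was at 95.3, 169 and 24.5 FPKM in the same order and 68.6 to 75.8 FPKM in int 2. Mmp7, not tested, was at 2.47, 3.93 and 0.0512 FPKM in that order and 0.0785 to 0.208 FPKM in int 2. The list summed to 76.9 to 177 FPKM in int 3 and 75.2 to 85.6 FPKM in int 2. Of the marker lists of other cell types, 3 of 5 tested genes of mesothelium, the outer lining of the bowel, rose and 0 fell (15.3% of all tested genes passed), and the 10 listed genes summed to 1301 to 1735 FPKM in int 3 and 1423 to 1428 FPKM in int 2. Nearly all of that sum is the epithelial keratin Krt19, and without it the sums were 10.8 to 21.9 FPKM in int 3 and 5.21 to 6.19 FPKM in int 2. Of the 3 that rose, Upk3b (3.27 to 3.72 FPKM in int 3 and 0.144 to 0.301 FPKM in int 2) and Upk1b were tested only through their int 3 values, and Msln and Upk1b were lost without any 1 of int 2-1, int 2-2, int 2-3 and int 3-1 (adjusted p up to 0.114 and 0.131 in limma). Of 12 monocyte and macrophage genes 8 rose and 2, Lyz2 and Ly6c2, fell, which is 83.3% called. Ly6c2 was at 5.29, 4.07 and 4.90 FPKM across int 3-1, int 3-2 and int 3-3 and 8.77 to 12.4 FPKM in int 2 (adjusted p = 0.0065, limma). The sums of the 12 genes were 380 to 480 FPKM in int 3 and 459 to 464 FPKM in int 2. Without Lyz2 they were 183 to 198 FPKM in int 3 and 126 to 128 FPKM in int 2. Of the 8 that rose, Ccr2 and Fcgr1 were tested only through their int 3 values, so nothing is read from the share called. Leaving out 1 library lost Lyz2 (adjusted p up to 0.153) and Adgre1 (up to 0.0878) but not Ly6c2. Of 17 epithelial genes 0 rose and 2 fell (11.8% called), with sums of 5864 to 7206 FPKM in int 3 and 6631 to 6706 FPKM in int 2, and the 2 that fell, Slc26a3 and Aqp8, were lost without any 1 of int 2-1, int 2-2, int 2-3 and int 3-1 (adjusted p up to 0.0964 and 0.0671), leaving 0 calls. In addition, 0 of 2 tested small intestine genes and 0 of 3 tested distal homeobox genes passed. Hoxd13 was at 14.2, 0.286 and 26.4 FPKM across int 3-1, int 3-2 and int 3-3 and 9.80 to 11.1 FPKM in int 2. Hoxa13 was at 12.1, 10.1 and 15.3 FPKM in the same order and 10.5 to 11.7 FPKM in int 2. The 5 listed distal genes, mostly Hoxb13, summed to 174, 26.9 and 310 FPKM in that order and 308 to 312 FPKM in int 2. With such a spread within int 3, not passing is no sign that the groups agree. The part of Hoxb13 and of these cell types in the results below was not tested.

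Dmbt1 was the most abundant of the 6 genes in int 3. Its FPKM was 820, 893 and 762 in int 3-1, int 3-2 and int 3-3, and 162, 164 and 165 in int 2-1, int 2-2 and int 2-3. All int 3 libraries lay above all int 2 libraries, and within int 3 the highest value was 1.17 times the lowest. That is a log2 range of 0.23 in int 3, wider than that of 42.9% of the tested genes, and of 0.025 in int 2. The means were 825 ± 65.9 FPKM in int 3 and 164 ± 1.47 FPKM in int 2 (SD, n = 3 each), a ratio of 5.04 and a difference of 2.32 on the log2(FPKM + 1) scale (SE 0.07). Among all genes of a library, ordered by FPKM, Dmbt1 stood at place 88, 61 and 110 in int 3-1, int 3-2 and int 3-3 and at place 393 to 403 in the int 2 libraries. Each int 3 value rests on 181773 to 206854 fragments and each int 2 value on 37833 to 38517, and the chi-square per degree of freedom between libraries was 1237 in int 3 and 3.06 in int 2, so that counting error is small beside the spread within int 3. The difference of Dmbt1 was number 28 from the top among the 12525 tested genes.

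Slpi, the antiprotease, had the largest log2 difference of the 6 and, of the 4 with enough signal to be tested, the widest spread within int 3. Its FPKM was 32.1, 15.5 and 52.3 in int 3-1, int 3-2 and int 3-3, against 1.70, 2.03 and 1.98 in int 2-1, int 2-2 and int 2-3. Every int 3 library lay above every int 2 library, at 8.14 to 27.5 times the int 2 mean, and int 3-3 held 3.38 times the FPKM of int 3-2. The means were 33.3 ± 18.4 FPKM in int 3 and 1.90 ± 0.180 FPKM in int 2 (SD, n = 3 each), a ratio of 17.5 and a log2 difference of 3.41 (SE 0.49), number 7 from the top among tested genes. The values rest on 1489, 716 and 2492 fragments in int 3-1, int 3-2 and int 3-3 and on 79, 95 and 92 in int 2-1, int 2-2 and int 2-3. In int 2 the 3 counts of Slpi agreed within sampling noise (chi-square per degree of freedom 0.797), while in int 3 that measure was 477. The log2 range of Slpi within int 3, 1.69, was wider than that of 98.7% of the tested genes.

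Pglyrp1 was high in both groups. It measured 463, 384 and 597 FPKM across int 3-1, int 3-2 and int 3-3, and 327, 323 and 317 FPKM in int 2-1, int 2-2 and int 2-3. The groups did not overlap, but int 3-2 was only 1.19 times the int 2 mean while int 3-3 was 1.85 times that mean. The means were 481 ± 107 FPKM in int 3 and 323 ± 4.77 FPKM in int 2 (SD, n = 3 each), a ratio of 1.49 and a log2 difference of 0.55 (SE 0.18), number 633 from the top. Pglyrp1 was the most abundant of the 6 genes in every int 2 library and Dmbt1 in every int 3 library: the ratio of Dmbt1 to Pglyrp1 FPKM was 1.77, 2.33 and 1.28 in int 3-1, int 3-2 and int 3-3, and 0.496 to 0.520 in the int 2 libraries.

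Ltf was close to the limit of measurement. It had 65, 13 and 104 fragments in int 3-1, int 3-2 and int 3-3, against 7, 3 and 3 in int 2-1, int 2-2 and int 2-3, which is 0.695, 0.139 and 1.08 FPKM against 0.0745, 0.0318 and 0.0320 FPKM. The lowest int 3 library, int 3-2, lay near the int 2 libraries but above all of them. Summed over libraries, 182 fragments in int 3 and 13 in int 2 gave a ratio of 13.96 per fragment sequenced (95% exact interval 7.96 to 26.7, which covers counting error only). The means were 0.639 ± 0.474 FPKM in int 3 and 0.0461 ± 0.0246 FPKM in int 2 (SD, n = 3 each). With 1 library at 1 FPKM or more, Ltf did not reach the minimum for the test across genes, which was 1 FPKM in at least 3 libraries.

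Itln1 went the other way. Its FPKM was 0.733, 0.392 and 0.475 in int 3-1, int 3-2 and int 3-3, against 2.94, 3.31 and 3.46 in int 2-1, int 2-2 and int 2-3. All 3 int 3 libraries were below 1 FPKM and all 3 int 2 libraries above it, with no overlap. The means were 0.533 ± 0.178 FPKM in int 3 and 3.24 ± 0.269 FPKM in int 2 (SD, n = 3 each), and the log2 difference was -1.47 (SE 0.11), number 77 from the bottom. The counts were 30, 16 and 20 fragments in int 3-1, int 3-2 and int 3-3, and 121, 137 and 142 in int 2-1, int 2-2 and int 2-3, which per fragment sequenced is 6.08-fold lower in int 3 (95% exact interval 4.68 to 8.01, counting error only). Muc2, the main goblet cell mucin, did not share this pattern: at 274, 467 and 102 FPKM across int 3-1, int 3-2 and int 3-3 and 93.5 to 96.1 FPKM in int 2 it did not pass the test (adjusted p = 0.14, limma). Per 1000 FPKM of Muc2, Itln1 was at 2.68, 0.839 and 4.65 FPKM across int 3-1, int 3-2 and int 3-3 and at 31.2 to 37.0 FPKM in the int 2 libraries.

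Camp was the scarcest of the 6 in int 3. It had 5, 3 and 5 fragments in int 3-1, int 3-2 and int 3-3 and 12, 9 and 8 in int 2-1, int 2-2 and int 2-3, or 0.245, 0.147 and 0.238 FPKM against 0.584, 0.436 and 0.391 FPKM. The groups did not overlap, at counts so low that 13 fragments in int 3 and 29 in int 2 gave an int 2 to int 3 ratio of 2.24 with a 95% exact interval of 1.13 to 4.69, which covers counting error only. The means were 0.210 ± 0.0544 FPKM in int 3 and 0.471 ± 0.101 FPKM in int 2 (SD, n = 3 each). No library reached 1 FPKM and Camp was not tested.

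**Figure D1:**
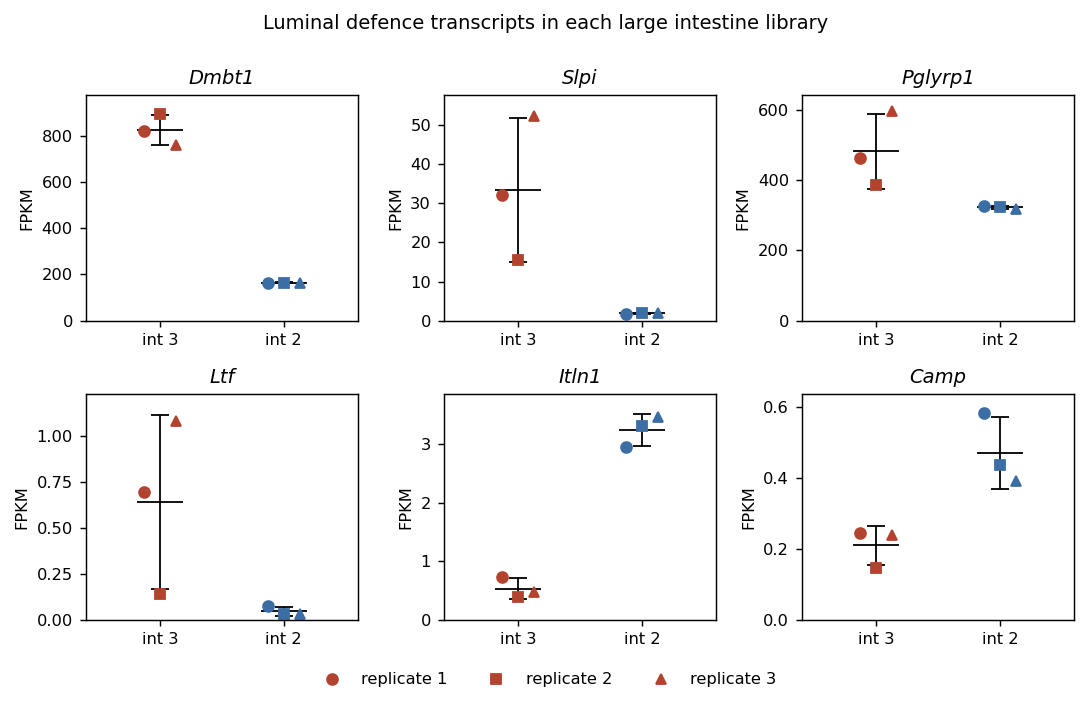
FPKM of the 6 genes in each library, one panel per gene with its own axis from 0, with int 3 left and int 2 right; symbols give the replicate number, the long line the group mean and the bars 1 SD (n = 3). Dmbt1, Slpi, Pglyrp1 and Ltf lie higher in int 3 and Itln1 and Camp lower, and the int 3 libraries of Slpi spread over 15.5 to 52.3 FPKM while the int 2 libraries stay within 1.70 to 2.03 FPKM.

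In all, 4 of the 6 genes had their int 3 values all above their int 2 values and 2 had them all below. Of the 12525 tested genes 22.4% lay all above and 17.9% all below, and since the genes were picked on this contrast nothing is read from their count. Only Dmbt1, Slpi, Pglyrp1 and Itln1 reached the minimum for testing, Itln1 through its int 2 values alone. Without int 3-2, the library with the lowest Hoxb13, the log2 differences were 2.26 for Dmbt1, 3.86 for Slpi, 0.70 for Pglyrp1, 0.84 for Ltf, -1.41 for Itln1 and -0.24 for Camp. Together the 6 genes made up 1317, 1294 and 1413 FPKM across int 3-1, int 3-2 and int 3-3, and 488 to 494 FPKM in the int 2 libraries, nearly all of it from Dmbt1 and Pglyrp1. Dmbt1 was 62.3%, 69.1% and 53.9% of that sum in int 3-1, int 3-2 and int 3-3, against 32.8% to 33.8% in int 2.

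The genes that were higher in int 3 did not order its libraries alike. Slpi, Pglyrp1 and Ltf were highest in int 3-3, next in int 3-1 and lowest in int 3-2, the order that Hoxb13 also had. Dmbt1 had the reverse order, highest in int 3-2 and lowest in int 3-3, so that the ratio of Dmbt1 to Slpi FPKM was 25.5, 57.7 and 14.6 in int 3-1, int 3-2 and int 3-3, against 80.9 to 95.6 in int 2. Among all 12525 tested genes, 49.6% had the order of Dmbt1 and 23.9% that of Slpi, while the other 4 orders took the rest. Among the 2809 tested genes with all int 3 values above all int 2 values, 57.0% had the order of Dmbt1 and 16.9% that of Slpi. Itln1 had a further order, highest in int 3-1, next in int 3-3 and lowest in int 3-2, on few fragments. Camp was also lowest in int 3-2, but had 5 fragments in int 3-1 and 5 in int 3-3, which gives these libraries no order.

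**Figure D2:**
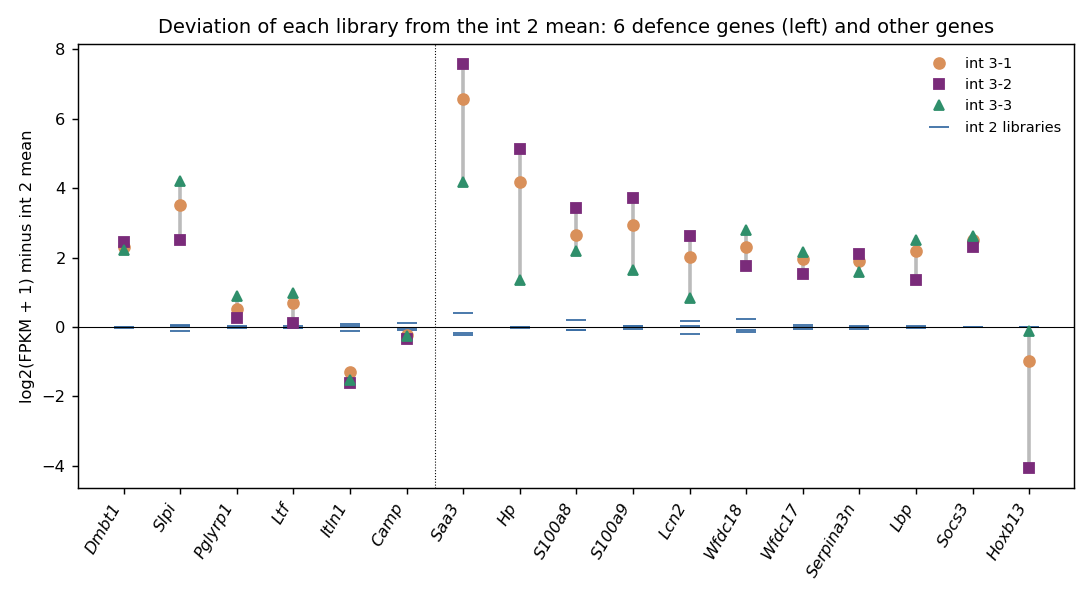
Deviation of each int 3 library (symbols) and each int 2 library (blue dashes) from the int 2 mean on the log2(FPKM + 1) scale, for the 6 genes left of the dotted line and for genes of the related lists and Hoxb13 right of it. Slpi, Pglyrp1, Ltf, Wfdc18, Wfdc17, Lbp, Socs3 and Hoxb13 are highest in int 3-3 among the int 3 libraries, whereas Dmbt1, Saa3, Hp, S100a8, S100a9, Lcn2 and Serpina3n are highest in int 3-2.

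For the 4 tested genes the nearest patterns were sought as the 3 tested genes with the smallest root mean square difference in their deviations from the int 2 mean over the 6 libraries, on the log2(FPKM + 1) scale. For Dmbt1 these were Ly6m at a distance of 0.049, Ido1 at 0.058 and Duoxa2 at 0.112. Duoxa2, the maturation factor of the epithelial hydrogen peroxide generating oxidase Duox2, was at 35.7, 39.2 and 32.5 FPKM across int 3-1, int 3-2 and int 3-3 and 5.26 to 5.90 FPKM in int 2. Ido1, the first enzyme of tryptophan breakdown along the kynurenine pathway, was at 4.37, 5.12 and 4.01 FPKM across int 3-1, int 3-2 and int 3-3 and 0.065 to 0.163 FPKM in int 2. Ido1 was tested only through its int 3 values. By ratio it changed far more than Dmbt1, so its likeness to Dmbt1 holds on the log2(FPKM + 1) scale only.

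Slpi had no near neighbour by this measure. The distance is not scaled for the size of a change, and Slpi was number 7 from the top, so few genes could lie near it. Its distances are therefore not compared with those of the other genes. The closest gene was Lrg1, a secreted leucine-rich glycoprotein of the acute phase response, at a distance of 0.365, with 40.3, 24.1 and 56.3 FPKM across int 3-1, int 3-2 and int 3-3 and 2.96 to 4.85 FPKM in int 2. Lrg1 ordered the int 3 libraries as Slpi did. The next 2, the chemokine Ccl8 at 0.573 and Socs3 at 0.777, were much farther off. For Pglyrp1 the nearest were Serpinb5 at 0.030, Tmem140 at 0.043 and Gsdmd, the pore-forming protein of pyroptosis, at 0.043. Gsdmd was at 67.7, 53.2 and 82.4 FPKM across int 3-1, int 3-2 and int 3-3 and 44.9 to 47.9 FPKM in int 2. For Itln1 the nearest were Pck1, the gluconeogenic enzyme, at 0.096 and Arhgap4 at 0.097. Pck1 was at 24.8, 22.1 and 25.5 FPKM across int 3-1, int 3-2 and int 3-3 and 67.7 to 69.2 FPKM in int 2. By ratio Itln1, a low gene, fell more than Pck1, so this likeness too holds on the log2(FPKM + 1) scale only. The list gives likeness over 6 libraries on that scale and says nothing of function or control.

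**Figure D3:**
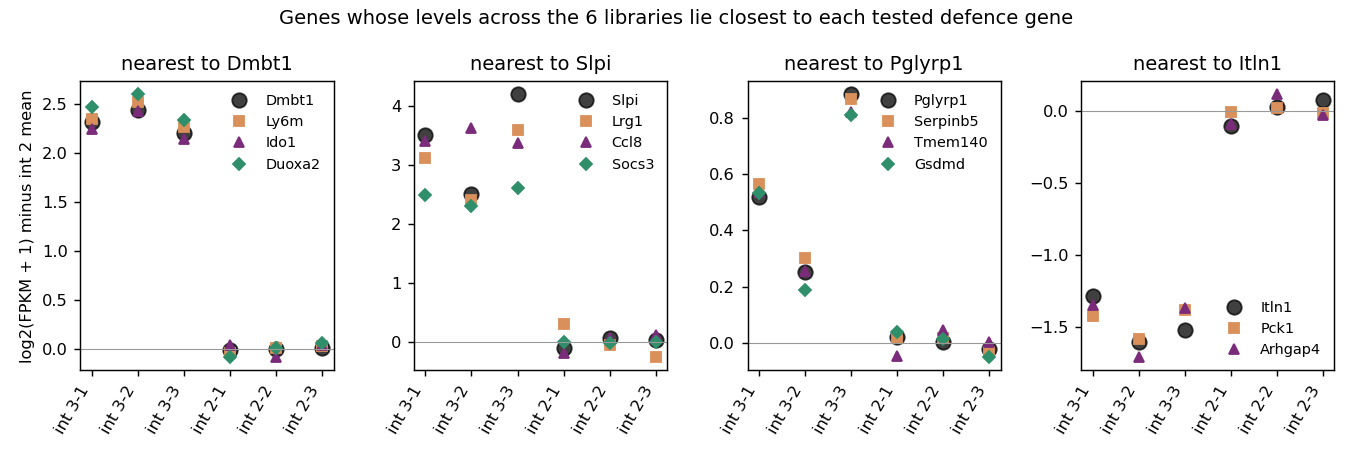
Deviation from the int 2 mean on the log2(FPKM + 1) scale in each of the 6 libraries, int 3 left and int 2 right, for each tested gene (dark circle) and the 3 tested genes nearest to it, or 2 for Itln1. On this scale the neighbours of Dmbt1 (root mean square distance 0.049 to 0.112) and Pglyrp1 (0.030 to 0.043) lie almost on them, while those of Slpi (0.365 to 0.777) spread widely over the int 3 libraries. The scale understates the change of low genes such as Ido1 and Itln1.

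The other genes of luminal defence were read from 7 lists by the role of their products, each leaving out the 6 genes above, and tested with limma across all 12525 genes (adjusted p under 0.05). Over all tested genes 15.3% passed, 8.64% as higher and 6.7% as lower in int 3, or 1082 higher and 839 lower. With the libraries scaled to equal sums (TPM) the split was 1274 higher and 609 lower, so that 67.7% of the calls were higher in place of 56.3%, and with median-of-ratios scaling it was 996 higher and 945 lower (51.3% higher). The median log2 difference over all tested genes was 0.03, with TPM scaling 0.10 and with median-of-ratios scaling -0.01. Leaving out int 2-1, int 2-2, int 2-3 and int 3-1, each alone, gave 635, 615, 637 and 642 calls, and leaving out int 3-3 gave 4913. When the int 2 libraries, which differed little from each other, were averaged to 1 sample, 0 genes passed in limma at an adjusted p under 0.05 and 1132 of 12525 had an unadjusted p under 0.05, so that every call given below was lost in that setting.

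Secreted antimicrobial and other mucosal defence proteins changed in both directions. Of 43 listed genes 42 were in the table and 26 were tested, 5 of them only through their int 3 values, and 7 rose, 4 fell and 15 did not pass. That is 42.3% called beside 15.3% of all tested genes, and the median log2 difference of the 26 was 0.10 beside 0.03 over all. Of the 7 that rose, 4 (Saa3, Hp, S100a8 and S100a9) were tested only through their int 3 values, so nothing is read from this share or median. Saa3, a serum amyloid A made in tissues, was at 122, 247 and 22.6 FPKM across int 3-1, int 3-2 and int 3-3 and 0.110 to 0.717 FPKM in int 2 (log2 difference 6.10, SE 0.82, adjusted p = 0.0063). Its int 3 values spread widely and all lay far above int 2. Both subunits of calprotectin, which withholds zinc and manganese from microbes, rose: S100a8 was at 5.76, 10.5 and 3.86 FPKM across int 3-1, int 3-2 and int 3-3 against 0 to 0.224 FPKM in int 2 (log2 difference 2.76, SE 0.30, adjusted p = 0.0033). S100a9 was at 6.88, 12.7 and 2.23 FPKM across int 3-1, int 3-2 and int 3-3 against 0 to 0.0559 FPKM in int 2 (log2 difference 2.76, SE 0.49, adjusted p = 0.015). Hp (haptoglobin, which binds free haemoglobin; log2 difference 3.56, adjusted p = 0.046) and Lcn2 (lipocalin 2, which binds bacterial siderophores; log2 difference 1.83, adjusted p = 0.037) rose with the same order of int 3 libraries as Dmbt1.

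Lysozyme genes fell. Lyz1, the lysozyme of Paneth and deep crypt secretory cells, was at 3.15, 1.81 and 4.08 FPKM across int 3-1, int 3-2 and int 3-3 and 21.2 to 22.9 FPKM in int 2 (log2 difference -2.58, SE 0.21, adjusted p = 0.0011). Lyz2, the lysozyme of macrophages, was at 234, 197 and 282 FPKM across int 3-1, int 3-2 and int 3-3 and 331 to 338 FPKM in int 2 (log2 difference -0.51, adjusted p = 0.044). The 2 genes are close copies, and how fragments shared between them were counted is not given in the sources used here. Reg4, a lectin-like secretory protein of the crypt, was at 131, 72.4 and 184 FPKM across int 3-1, int 3-2 and int 3-3 and 698 to 728 FPKM in int 2 (log2 difference -2.56, SE 0.31, adjusted p = 0.0046), and Rnase4, an antimicrobial ribonuclease, fell by 0.23 on the log2 scale (adjusted p = 0.032). Lyz1 and Reg4 were low in the same libraries as Itln1. The goblet cell lectin Zg16 had 1520, 498 and 2471 FPKM across int 3-1, int 3-2 and int 3-3 and 422 to 446 FPKM in int 2 and did not pass (adjusted p = 0.12). Without any 1 of int 2-1, int 2-2, int 2-3 and int 3-1 the list had 5 calls, and Hp, S100a9, Lcn2, Adm (adrenomedullin), Lyz2 and Rnase4 were no longer called (adjusted p up to 0.162, 0.0757, 0.141, 0.0674, 0.153 and 0.146 in that order). Without int 3-2 it had 19 calls and without int 3-3 it had 21.

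Of the 26 tested genes of this list, 16 (61.5%) had the int 3 order of Slpi, highest in int 3-3 and lowest in int 3-2, and 10 (38.5%) the order of Dmbt1, beside 23.9% and 49.6% of all tested genes. Among the called genes, those that rose most, Saa3, Hp, S100a8, S100a9 and Lcn2, all had the order of Dmbt1. Reg3b had a larger log2 difference than these, 7.61, and did not pass (adjusted p = 0.092, limma). It was at 1130, 2493 and 1.65 FPKM across int 3-1, int 3-2 and int 3-3 and listed at 0 in int 2. Retnlb had a larger difference than Lcn2, 2.34, and did not pass (adjusted p = 0.13, limma). Reg3b and Retnlb also had the order of Dmbt1.

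Protease inhibitors, the class of Slpi, had 32 listed genes, all in the table, of which 13 were tested, and 4 rose, 1 fell and 8 did not pass. That is 38.5% called, with a median log2 difference of 0.18. The 2 that rose most are WAP-domain proteins like Slpi. Wfdc18 was at 38.0, 25.99 and 54.3 FPKM across int 3-1, int 3-2 and int 3-3 and 6.19 to 8.27 FPKM in int 2 (log2 difference 2.29, SE 0.26, adjusted p = 0.0036). Wfdc17 was at 49.0, 35.8 and 56.6 FPKM across int 3-1, int 3-2 and int 3-3 and 11.3 to 12.4 FPKM in int 2 (log2 difference 1.89, SE 0.16, adjusted p = 0.0014). Both had the int 3 order of Slpi. Serpina3n, a serpin of the acute phase response, was at 48.2, 55.2 and 38.4 FPKM across int 3-1, int 3-2 and int 3-3 and 11.6 to 12.5 FPKM in int 2 (log2 difference 1.87, SE 0.13, adjusted p = 0.00076), and Serping1, the inhibitor of complement C1, rose by 0.65 on the log2 scale (adjusted p = 0.0014). The WAP-domain genes did not move as 1 class, since Wfdc1 fell, at 18.5 to 22.8 FPKM in int 3 and 36.7 to 38.4 FPKM in int 2 (log2 difference -0.80, SE 0.08, adjusted p = 0.0029). Wfdc2 was at 229, 88.5 and 376 FPKM across int 3-1, int 3-2 and int 3-3 and 491 to 503 FPKM in int 2. It had the int 3 order of Slpi but lay below int 2 in every int 3 library, and did not pass (adjusted p = 0.12, limma). None of the 5 calls was lost when 1 library was left out, and without int 3-2 or int 3-3 there were 8 calls.

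Proteins with SRCR domains, the class of Dmbt1, had 23 listed genes, of which 9 were tested, 1 of them (Cd5) only through its int 2 values. Of these 9, 2 rose, 1 fell and 6 did not pass (33.3% called, median log2 difference 0.19). Cd5 is the 1 that fell, so nothing is read from this share or median. Lgals3bp, a secreted galectin-binding glycoprotein, was at 77.5, 84.4 and 64.3 FPKM across int 3-1, int 3-2 and int 3-3 and 41.2 to 42.2 FPKM in int 2 (log2 difference 0.83, SE 0.10, adjusted p = 0.0043). Ssc5d, a soluble scavenger receptor, was at 3.99 to 4.29 FPKM in int 3 and 1.76 to 2.11 FPKM in int 2 (log2 difference 0.82, adjusted p = 0.0015). Cd5, a surface receptor of T cells, fell, at 0.191 to 0.291 FPKM in int 3 and 1.0497 to 1.501 FPKM in int 2 (log2 difference -0.84, adjusted p = 0.0043). The log2 difference of Dmbt1, 2.32, was larger than each of these, but the log2(FPKM + 1) scale understates the change of Cd5. Mean Cd5 was 0.242 FPKM in int 3 and 1.23 FPKM in int 2, about as large a factor as that of Dmbt1. Dmbt1 was picked with its difference known, so nothing is read from this ranking. Without int 3-3 the list had 5 calls.

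Proteins that bind bacterial wall or microbial sugars, with their sensors, had 29 listed genes and 27 in the table, of which 16 were tested, and 4 rose, 1 fell and 11 did not pass (31.2% called; median log2 difference 0.35). Lbp, which hands lipopolysaccharide to Cd14, was at 9.03, 4.62 and 11.5 FPKM across int 3-1, int 3-2 and int 3-3 and 1.17 to 1.25 FPKM in int 2 (log2 difference 2.01, SE 0.28, adjusted p = 0.0070). Lgals9, a galectin, rose by 1.30 on the log2 scale (adjusted p = 0.0040) and Clec7a, the beta-glucan receptor dectin-1, by 1.04 (adjusted p = 0.0064). Tlr4, the lipopolysaccharide receptor, rose by 0.57 on that scale (adjusted p = 0.0082). Mptx1, the mucosal pentraxin, fell, at 185, 5.06 and 360 FPKM across int 3-1, int 3-2 and int 3-3 and 5192 to 5440 FPKM in int 2 (log2 difference -6.17, SE 1.46, adjusted p = 0.038). The close relatives of Pglyrp1 were scarce: Pglyrp2 was at 0.185, 0.0541 and 0.195 FPKM across int 3-1, int 3-2 and int 3-3 and 0.534 to 0.660 FPKM in int 2, Pglyrp3 was at 0.024 FPKM in int 3-1 and listed at 0 in the other 5 libraries, and Pglyrp4 was listed at 0 in all 6. Pglyrp2 thus lay on the other side of int 2 from Pglyrp1, untested and at under 1 FPKM. Without int 2-1, int 2-2 or int 3-1 the list had 3 calls, Mptx1 and Tlr4 being lost (adjusted p up to 0.133 and 0.0515). Mptx1 was also lost without int 2-3, and without int 3-2 and without int 3-3 the list had 9 and 11 calls.

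A further list held cytokines, receptors and signal transducers of pathways known to induce mucosal defence genes, with inhibitors such as Socs3 and Il22ra2. Of its 32 genes 22 were tested, 2 of them only through their int 3 values. Of these 22, 12 rose, 2 fell and 8 did not pass. That is 63.6% called beside 15.3% of all tested genes, with a median log2 difference of 0.49. The 2 tested only through int 3, Tnf and Il11, are among the 12 that rose, so nothing is read from this share or median. Of the inhibitors, Socs3 is counted among the 12 and Il22ra2 among the 2, so the counts give no direction of induction. Socs3, the feedback inhibitor that STAT3 induces, was at 55.3, 48.3 and 60.2 FPKM across int 3-1, int 3-2 and int 3-3 and 8.95 to 9.06 FPKM in int 2 (log2 difference 2.47, SE 0.08, adjusted p = 8.2e-05). Il1b was at 4.75, 5.12 and 4.23 FPKM across int 3-1, int 3-2 and int 3-3 and 1.10 to 1.63 FPKM in int 2 (log2 difference 1.29, SE 0.11, adjusted p = 0.0013), and Il11, a cytokine of the interleukin 6 family, rose by 1.53 on the log2 scale (adjusted p = 0.024). Cebpb, a C/EBP factor, was at 49.4, 56.6 and 40.8 FPKM across int 3-1, int 3-2 and int 3-3 and 20.8 to 22.9 FPKM in int 2 (log2 difference 1.10, SE 0.12, adjusted p = 0.0031). The other 8 that rose, by 0.40 to 1.06 on the log2 scale, were Tnf, Nfkbiz, Bcl3, Cebpd, Osmr, Stat3, Il1r1 and Myd88.

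Il22ra2, the soluble decoy receptor that binds interleukin 22, fell, at 1.76, 0.917 and 2.81 FPKM across int 3-1, int 3-2 and int 3-3 and 10.1 to 11.3 FPKM in int 2 (log2 difference -2.09, SE 0.24, adjusted p = 0.0036). Il17ra, the shared receptor chain of interleukin 17 cytokines, fell by 0.34 on the log2 scale (adjusted p = 0.034). Interleukin 22 and interleukin 17A themselves, named here for their place upstream of these genes and after their values were seen, were too low to test. Il22 was at 0.544, 0.231 and 0.977 FPKM across int 3-1, int 3-2 and int 3-3 and 0 to 0.104 FPKM in int 2, the int 3 order of Slpi, and Il17a was at 0 to 0.050 FPKM in int 3 and 0 to 0.025 FPKM in int 2. Without any 1 of int 2-1, int 2-2, int 2-3 and int 3-1, the list had 10 calls, and Il11, Il1r1, Myd88 and Il17ra were no longer among them (adjusted p up to 0.102, 0.0747, 0.102 and 0.146 in that order), and Il17ra was lost with either other scaling of the libraries.

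**Figure D4:**
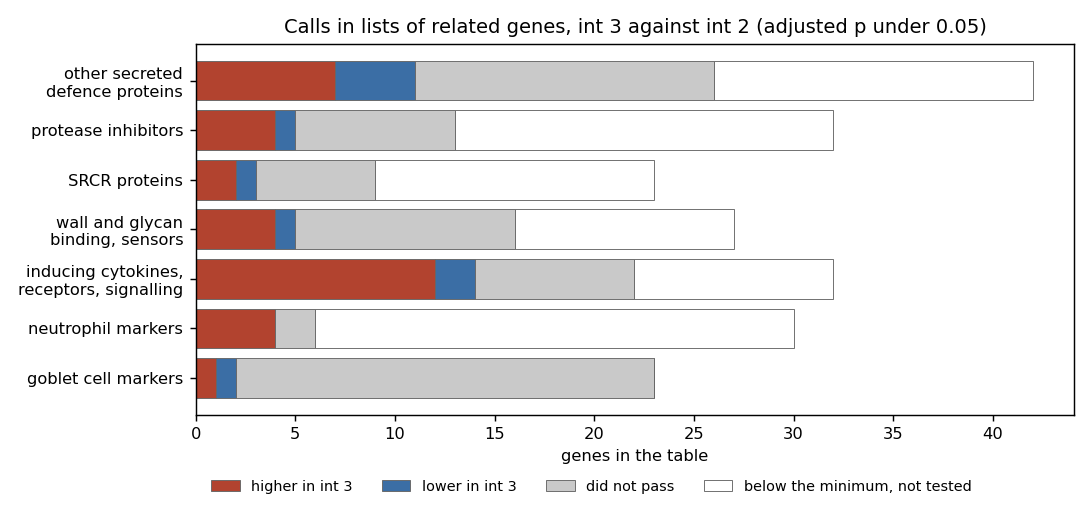
Number of genes in each of 7 lists of related genes that were higher in int 3 (red), lower in int 3 (blue), tested without passing (grey) or below the minimum for testing (white), by limma at an adjusted p under 0.05. The list of inducing pathways, which also holds inhibitors, has 12 higher and 2 lower of 22 tested. The other secreted defence proteins have 7 and 4 of 26, and the goblet cell markers 1 and 1 of 23.

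Neutrophils store Pglyrp1, Ltf and Camp, and their markers were read beside these genes. Of 31 listed neutrophil genes 30 were in the table and 6 were tested, 3 of them only through their int 3 values, while 21 were below 1 FPKM in every library. Of the 6, 4 rose, 0 fell and 2 did not pass. The 3 tested only through int 3, namely S100a8, S100a9 and Chil3, are among the 4 that rose, so no share or median is read from the list, and S100a8 and S100a9 are also on the list of secreted proteins. Of the 24 genes in the table that were not tested, 9 had all int 3 values above all int 2 values and 1 had them all below, none of the 24 above 1.52 FPKM. The share among all untested genes was not worked out, so nothing is read from these counts. The 1 below was Asprv1, at 0.198, 0.0199 and 0.251 FPKM across int 3-1, int 3-2 and int 3-3 and 0.277 to 0.472 FPKM in int 2. Mmp9 overlapped, at 0.610, 1.35 and 0.533 FPKM in the same order and 0.795 to 0.906 FPKM in int 2. Retnlg was at 0.578, 1.16 and 0.141 FPKM across int 3-1, int 3-2 and int 3-3 and 0 to 0.0480 FPKM in int 2. Clec4d, a lectin receptor of myeloid cells, was at 0.877, 1.52 and 0.555 FPKM across int 3-1, int 3-2 and int 3-3 and 0.0435 to 0.153 FPKM in int 2. Fpr2, a formyl peptide receptor, was at 0.769, 0.930 and 0.836 FPKM across int 3-1, int 3-2 and int 3-3 and 0.0900 to 0.269 FPKM in int 2. The defining granule genes were at or near 0: Elane and Ctsg were listed at 0 in all 6 libraries, Mpo reached 0.0462 FPKM in int 3-2 and 0.0458 FPKM in int 2-1 and was listed at 0 in the others, and Ngp reached 0.0253 FPKM in int 3-2 and was listed at 0 in the others. Prtn3, the granule protease proteinase 3, was at 0.181, 0.211 and 0.0293 FPKM across int 3-1, int 3-2 and int 3-3 and 0 to 0.0599 FPKM in int 2. Summed over the list, the genes made 182 to 268 FPKM in int 3 and 94.3 to 94.5 FPKM in int 2, mostly from Cd177 and Ly6g. In int 2 these 2 genes were at 50.4 to 51.8 and 38.9 to 39.7 FPKM. There S100a8 was at 0 to 0.224, S100a9 at 0 to 0.0559 and Retnlg at 0 to 0.0480 FPKM. Which cells hold the Cd177 and Ly6g transcripts was not tested, so the sum is not read as a level of neutrophils. Cd177, a surface glycoprotein of neutrophils, was at 94.0 to 100 FPKM in int 3 and 50.4 to 51.8 FPKM in int 2 (log2 difference 0.93, SE 0.05, adjusted p = 0.00025). Ly6g was at 106, 51.8 and 155 FPKM across int 3-1, int 3-2 and int 3-3 and 38.9 to 39.7 FPKM in int 2 and did not pass (adjusted p = 0.07), with the int 3 order of Slpi, Pglyrp1 and Ltf. Chil3, a chitinase-like protein of myeloid cells, rose by 1.38 on the log2 scale (adjusted p = 0.0072), with the order of Dmbt1. S100a9 was lost without any 1 of int 2-1, int 2-2, int 2-3 and int 3-1 (adjusted p up to 0.0757).

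Goblet cells are a source of Itln1, and their list had 1 gene that rose, 1 that fell and 21 that did not pass, of 23 listed and tested. That is 8.70% called beside 15.3% over all tested genes, with a median log2 difference of 0.16. All int 3 values lay above all int 2 values for 8 of the 23 and below them for 3, where 22.4% and 17.9% of all tested genes did so. Klk1, a tissue kallikrein, fell, at 425, 463 and 413 FPKM across int 3-1, int 3-2 and int 3-3 and 1096 to 1137 FPKM in int 2 (log2 difference -1.36, SE 0.06, adjusted p = 0.00019). Nlrp6, an inflammasome sensor of the epithelium, rose by 0.41 on the log2 scale (adjusted p = 0.038). The summed level of the list was 7638 to 8011 FPKM in int 3 and 5870 to 5967 FPKM in int 2. Without any 1 of int 2-1, int 2-2, int 2-3 and int 3-1 only 1 call was left and Nlrp6 was lost (adjusted p up to 0.151), as it was with median-of-ratios scaling, which gave 0 higher and 2 lower. Without int 3-2 and without int 3-3 there were 6 and 11 calls.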

How the data were processed

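Bulk RNA of 3 int 3 and 3 int 2 samples of mouse large intestine was measured by RNA-seq, from TRIzol extracts and a VAHTS kit as the labels' protocols state. The deposited table holds the authors' FPKM values for 35434 gene symbols, on build GRCm39 per the submitters' processing notes. Aligner, counter, annotation and strand handling are not given in the sources used here. Columns were matched to samples by title.

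The difference int 3 minus int 2 on log2(FPKM + 1) was fitted for 12525 genes, those that reached 1 FPKM in 3 or more libraries, using limma 3.58.1 (R 4.3.3; linear models, moderated with a mean-variance trend). Tests were two-sided and adjusted by Benjamini-Hochberg across these genes. Adjusted p-values, and SE values of all genes but the 6, come from this fit. The SE of Dmbt1, Slpi, Pglyrp1 and Itln1 is the ordinary one, from the pooled SD of their own log2 values. The log2 scale understates the change of low genes. Fragments were recovered from the FPKM steps for all tested genes (relative tolerance 2e-07), with whole gene lengths within 0.05 bases for 99.2% of them, and served only for depth, counting noise and exact binomial intervals at 95%. Summaries were made in Python 3.11.15 with pandas 2.3.3, and intervals with scipy 1.17.1.

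The 6 genes, the lists and the tests were chosen with earlier results of these data known, so that no list is independent evidence of its direction. Named besides the 6 genes were up to 4 called genes per list and direction by size of the log2 difference, the 3 genes of nearest pattern to each tested gene (predicted genes and antigen receptor segments left out; 1 gene near Itln1 is not reported here), and the marker genes Hoxb13, Epcam, Muc2, Mpo, Elane, Ngp, Ly6g, Msln and Lcn2. Msln, a mesothelial marker, was at 2.53, 3.58 and 1.72 FPKM across int 3-1, int 3-2 and int 3-3 and 0.560 to 1.03 FPKM in int 2. Other genes named with values (Il22, Il17a, the relatives of Pglyrp1, Zg16, Wfdc2, Reg3b, Retnlb, Ctsg, Prtn3, Asprv1, Mmp9, Retnlg, Clec4d, Fpr2, Upk3b, Fabp6, Fabp2, Mmp7, Hoxd13, Hoxa13 and the called or lost genes of the lists and of the markers of other cell types that lie outside this rule) were chosen after their values were seen. Alternatives were another pseudocount, other filters, 2 other scalings, a replicate block, library weights, each library left out and, added after seeing the data, the int 2 libraries averaged to 1 sample.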

Additional observations from a re-analysis of the deposited data

How the results depend on the processing

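No direction of the 6 genes reversed under any setting run. Leaving out 1 library in turn gave log2 differences of 2.26 to 2.38 for Dmbt1, 3.01 to 3.86 for Slpi, 0.39 to 0.70 for Pglyrp1, 0.41 to 0.84 for Ltf, -1.56 to -1.41 for Itln1 and -0.32 to -0.23 for Camp. The scarce genes moved with the scale: a pseudocount of 0.1 gave 2.07 for Ltf, -2.43 for Itln1 and -0.88 for Camp, and scaling to equal sums (TPM) gave 0.95, -1.80 and -0.41 for Ltf, Itln1 and Camp. Fragment counts of 3 to 104 per library limit what can be read from Ltf and Camp.

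Counts of calls depended on the libraries. Leaving out 1 library gave 615 to 4913 calls over all genes, 5 to 21 for secreted defence proteins, 5 to 8 for protease inhibitors and 3 to 5 for SRCR proteins. It gave 3 to 11 for wall and glycan binding proteins, 10 to 16 for inducing pathways, 3 to 5 for neutrophil markers and 1 to 11 for goblet cell markers. With no filter on low values there were 5 SRCR, 7 neutrophil and 1 goblet cell calls. With a mean of 5 FPKM or more there were 1 SRCR, 2 wall and glycan binding, 9 inducing pathway and 1 neutrophil calls, fewer genes being tested. Weights for each library, whose estimation stopped before reaching its tolerance, gave 9221 calls over all genes, 25 secreted, 12 inhibitor, 8 SRCR, 14 wall and glycan binding and 16 goblet cell calls, and the cause was not tested. With the int 2 libraries averaged to 1 sample, chosen after seeing the data, 0 genes passed in every list and over all genes (1132 at an unadjusted p under 0.05 and a smallest adjusted p of 0.102), with 1 int 2 sample assumed to vary like int 3.

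Both groups carry replicate numbers 1 to 3, and the deviations of same-numbered libraries correlated at -0.015, 0.004 and -0.022 for numbers 1, 2 and 3. The int 2 libraries differed little beyond counting noise (chi-square per degree of freedom 2.94, against 86.3 in int 3). These correlations therefore cannot show whether the numbers pair the samples. The fit with the replicate number as a block gave 889 calls over all genes, 7 secreted and 1 goblet cell calls.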
